A study of Mus musculus with 6 samples.

Results

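The 10 genes described here encode inhibitors of mitogen-activated protein (MAP) kinase signalling and are called feedback genes below. They are the dual-specificity phosphatases Dusp1, Dusp4, Dusp5, Dusp6 and Dusp7, the sproutys Spry1, Spry2 and Spry4, and the sprouty-related Spred1 and Spred2. They were chosen by name, and all 10 had a value other than 0, among 26562 of 47593 symbols in the deposited tables that did. The cells were mouse primary neurons of wild-type genotype from hippocampus, maintained in B27-supplemented Neurobasal and exposed at day 10 of culture for 24 h to 6 µg/mL of apolipoprotein E (apoE) particles. In 3 samples the particles were astrocytic and in 3 they were microglial. No sample was without particles, so every difference is microglial minus astrocytic apoE, and neither group can be set against cells without particles. The labels do not say whether the 3 samples of a group are separate cultures, so p-values measure the spread between these samples, which may be technical.

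Growth factors and neuronal activity switch on the extracellular signal-regulated kinases (ERK) through receptor tyrosine kinases, Ras, Raf and MEK. Active ERK induces genes whose products then shut the pathway down. The Dusp proteins remove phosphate from the threonine and tyrosine of the MAP kinase activation loop. Sproutys act upstream, between receptor and Raf, and Spred proteins bring the Ras inhibitor neurofibromin to the membrane. In hippocampal neurons this pathway takes part in synaptic plasticity and in the response to neurotrophins.

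Of the 10 feedback genes, 6 rose with microglial apoE (Spry2, Dusp4, Spry4, Dusp6, Spred1 and Spred2) and 0 fell (limma adjusted p under 0.05). Over all 15055 genes tested, 13.0% rose and 11.8% fell, 24.9% in all. The largest rise, of Spry2, was 1.21-fold, and the smallest, of Spred2, was 1.06-fold. The median log2 fold change of the 10 was 0.11, against -0.0006 over all genes tested. In 7 of the 10 the 3 microglial libraries all lay above the 3 astrocytic ones, which was so for 20.1% of all genes tested; in Spred2 they barely did. All 10 had a log2 fold change above 0, and all passed the filter on low values. The differences were small, as were most in this comparison: the median absolute log2 fold change was 0.119 among all called genes.

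**Figure D1:**
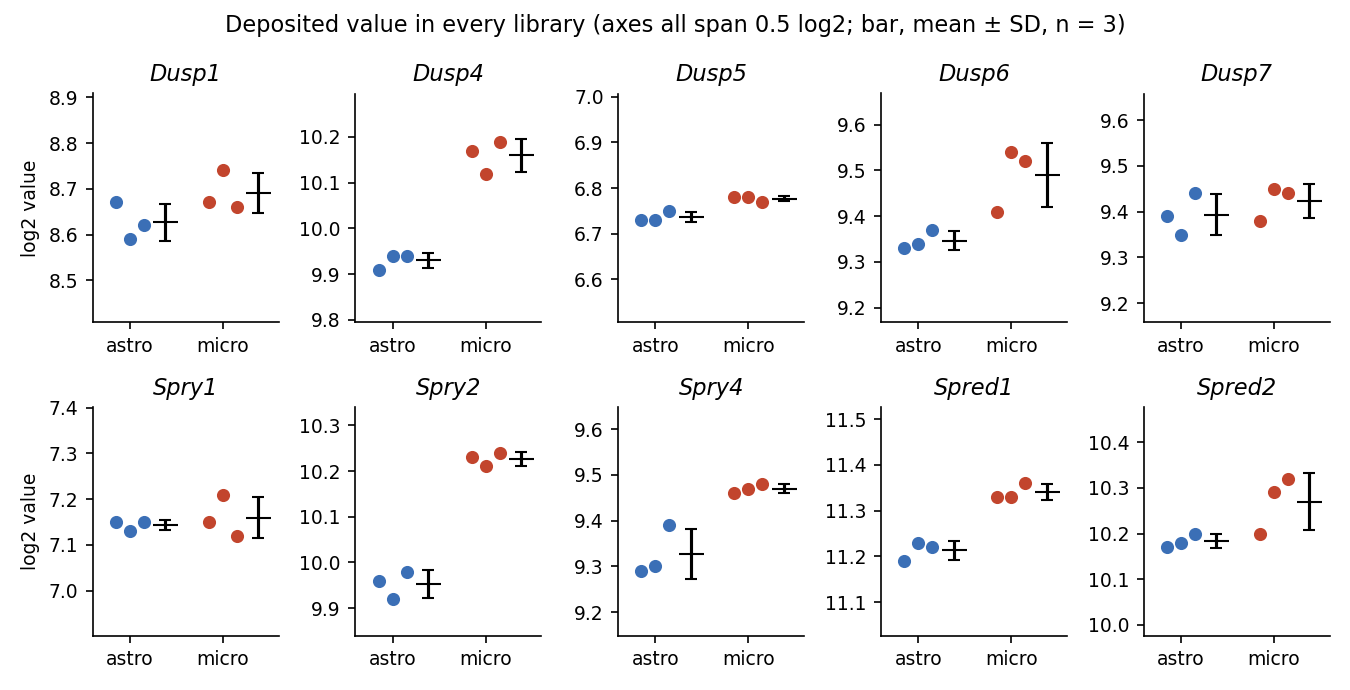
Deposited log2 value (vertical axis, each panel spanning the same range) of the 10 feedback genes in the astrocytic (blue) and microglial (red) apoE libraries; bars are the mean ± SD of 3. Spry2 and Dusp4 stand clearly apart between the groups, whereas Dusp1, Dusp7 and Spry1 overlap.

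The values look like a regularized logarithm, which no label states; such a scale draws low genes towards their mean and would understate both a change and its error. Among genes at values of 4 to 6 the median SD within a group was 0.022 and the median absolute log2 fold change 0.021, against 0.033 and 0.053 among genes at 10 to 12. The sequencing depth is unknown, and the sum of 2^value, 18060473 to 18337624 per library, is a common scale and no number of reads. If 2^value were a count, counting alone would give the difference of Spry2 an SE of 0.036, and its observed difference was 7.69 times that. The same ratio was 6.39 for Dusp4, 5.57 for Spred1, 3.22 for both Dusp6 and Spry4, and 2.52 for Spred2. For the other 4 genes it was between 0.20 (Spry1) and 1.13 (Dusp1). The limma SE lay below this counting SE for all of the 10 genes but Spred1 (0.027 against 0.024). It was 0.029 against 0.036 for Spry2, 0.032 against 0.045 for Spry4 and 0.025 against 0.113 for Dusp5. Among all genes at values of 8 to 10 the median SD within a group was 0.036 and the median counting SD 0.062. The ratio therefore sets no limit of detection, and whether the limma SEs of the called genes are too small was not tested.

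The sproutys are the feedback inhibitors that growth factors induce through ERK. Spry2 (chromosome 14, 105891947 to 105896819, minus strand) had values of 9.96, 9.92 and 9.98 with astrocytic apoE and of 10.23, 10.21 and 10.24 with microglial apoE. The groups were 0.236 apart at their nearest libraries, the widest gap of the 10 genes. Its mean went from 9.95 ± 0.028 to 10.23 ± 0.014 (SD, n = 3), a log2 fold change of 0.27 ± 0.029 SE (adjusted p = 5e-08). Spry2 ranked 201st of the 15055 genes by log2 fold change. Spry4 (chromosome 18, 38586247 to 38601415, minus strand) stood at 9.29, 9.30 and 9.39 with astrocytic and at 9.46, 9.47 and 9.48 with microglial apoE. The groups did not overlap, and the astrocytic replicate 3 lay nearest to the microglial libraries. Spry4 rose by 0.15 ± 0.032 SE (1.11-fold, adjusted p = 0.0013). Spry1 (chromosome 3, 37639947 to 37644598, plus strand) had the values 7.15, 7.13 and 7.15 against 7.15, 7.21 and 7.12, so its groups overlapped. It did not pass (0.02 ± 0.029 SE, adjusted p = 0.67), with a 95% interval of -0.04 to 0.08 on the log2 scale. Whether Spry1 differed less than Spry2 was not tested.

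Spred1 and Spred2 inhibit the step from Ras to Raf, and Spred1 binds neurofibromin. Spred1 (chromosome 2, 117121374 to 117182279, plus strand) stood at 11.19, 11.23 and 11.22 with astrocytic and at 11.33, 11.33 and 11.36 with microglial apoE. No library of one group reached the other. The log2 fold change was 0.13 ± 0.027 SE (1.10-fold, adjusted p = 0.00069). Spred2 (chromosome 11, 19924375 to 20024026, plus strand) had the values 10.17, 10.18 and 10.20 against 10.20, 10.29 and 10.32. The microglial replicate 1 was level with the highest astrocytic library, and the other two were higher. Spred2 passed narrowly (0.09 ± 0.031 SE, adjusted p = 0.045). Its call was lost with the replicate block (adjusted p = 0.054), without astrocytic replicate 1 or 2 and without microglial replicate 2 or 3 (adjusted p = 0.11 to 0.24), and under 4 other alternatives.

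Among the phosphatases, Dusp4 and Dusp6 rose. Dusp4 encodes a nuclear phosphatase induced by ERK (chromosome 8, 34807297 to 34819894, plus strand). Its values were 9.91, 9.94 and 9.94 with astrocytic and 10.17, 10.12 and 10.19 with microglial apoE. The groups were 0.185 apart, several times the spread within either. The mean went from 9.93 ± 0.018 to 10.16 ± 0.032 (SD, n = 3), a log2 fold change of 0.23 ± 0.029 SE (1.17-fold, adjusted p = 1e-06). Dusp6, the cytoplasmic phosphatase specific for ERK (chromosome 10, 99263231 to 99267489, plus strand), stood at 9.33, 9.34 and 9.37 against 9.41, 9.54 and 9.52. The groups did not overlap, and the microglial libraries were spread more widely (SD 0.071) than the astrocytic ones (SD 0.020), with replicate 1 the lowest. Dusp6 rose by 0.15 ± 0.033 SE (1.11-fold, adjusted p = 0.0021).

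The other 3 phosphatases did not pass. Dusp7, a close relative of Dusp6 that also acts on ERK in the cytoplasm (chromosome 9, 106368632 to 106375724), had values of 9.39, 9.35 and 9.44 against 9.38, 9.45 and 9.44, which overlapped. Its log2 fold change was 0.03 ± 0.032 SE (adjusted p = 0.59, 95% interval -0.04 to 0.09). Dusp1, a nuclear phosphatase of p38, JNK and ERK induced by stress and by activity (chromosome 17, 26505590 to 26562128), had values of 8.67, 8.59 and 8.62 against 8.67, 8.74 and 8.66. Its groups overlapped, and its log2 fold change was 0.07 ± 0.032 SE (adjusted p = 0.14, 95% interval -0.0002 to 0.13). Dusp5, a nuclear phosphatase specific for ERK (chromosome 19, 53529109 to 53542431), stood at 6.73, 6.73 and 6.75 against 6.78, 6.78 and 6.77. These groups were only 0.024 apart, and the log2 fold change of 0.04 ± 0.025 SE did not pass (adjusted p = 0.24, 95% interval -0.01 to 0.09). Exons of Dusp1, Dusp5 and Spry1 overlap a gene on the opposite strand in GENCODE M21 (Ergic1, AC137853.2 and Gm42922). Reads of these pairs cannot be told apart where counting ignored strand, which is not given in the sources used here. None of the 6 genes that rose has such an overlap.

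Promoter sequences from RefSeq (GRCm38.p6, 250 bases before to 50 after the start) matched 8 of the 10 genes, all but Dusp4 and Spry4, and 4 are shown because they set 2 genes that rose (Spry2 and Dusp6) beside 2 that did not pass (Dusp1 and Dusp5). Capitals mark every match, on either strand, to the cAMP response element (CRE) TGACGTCA, its core TGACG (which the full element also holds), the AP-1 element TGANTCA, the ETS core CCGGAA or the CArG box bound by serum response factor. The regions are chr14:105896770-105897069 (minus strand) for Spry2, chr10:99262981-99263280 (plus strand) for Dusp6, chr17:26508423-26508722 (minus strand) for Dusp1 and chr19:53528895-53529194 (plus strand) for Dusp5.
Spry2: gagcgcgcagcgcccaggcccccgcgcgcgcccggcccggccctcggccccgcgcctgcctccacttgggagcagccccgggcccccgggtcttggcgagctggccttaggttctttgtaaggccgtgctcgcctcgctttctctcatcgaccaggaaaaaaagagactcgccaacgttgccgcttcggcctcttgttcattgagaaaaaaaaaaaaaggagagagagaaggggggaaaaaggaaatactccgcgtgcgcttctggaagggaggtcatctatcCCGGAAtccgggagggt
Dusp6: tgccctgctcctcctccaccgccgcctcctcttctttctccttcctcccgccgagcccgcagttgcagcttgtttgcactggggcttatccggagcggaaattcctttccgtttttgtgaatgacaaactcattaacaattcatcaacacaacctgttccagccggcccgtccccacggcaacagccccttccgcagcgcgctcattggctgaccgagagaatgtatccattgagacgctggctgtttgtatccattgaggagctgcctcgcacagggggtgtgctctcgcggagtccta
Dusp1: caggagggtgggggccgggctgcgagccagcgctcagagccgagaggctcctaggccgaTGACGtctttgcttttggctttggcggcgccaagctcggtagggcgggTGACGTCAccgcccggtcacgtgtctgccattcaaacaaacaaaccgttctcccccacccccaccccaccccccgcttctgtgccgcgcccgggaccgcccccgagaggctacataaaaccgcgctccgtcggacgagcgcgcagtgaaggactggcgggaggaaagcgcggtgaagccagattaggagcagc
Dusp5: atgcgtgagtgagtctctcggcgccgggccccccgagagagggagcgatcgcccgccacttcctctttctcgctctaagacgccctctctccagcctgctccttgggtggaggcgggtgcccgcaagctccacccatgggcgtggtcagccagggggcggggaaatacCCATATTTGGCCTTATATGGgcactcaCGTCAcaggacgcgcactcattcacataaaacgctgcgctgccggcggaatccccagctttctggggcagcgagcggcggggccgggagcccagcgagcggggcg

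The Dusp1 window held the full CRE, first base at -143 from the start, a sequence found in 1.79% of all 32851 promoter windows of this length. Further TGACG matches began at -191 and at -140, the latter inside the full element. Dusp5 held a pair of CArG boxes at -82 and -72 (1.63% of all windows held any) and a TGACG core at -55. In Spry2 the only match was an ETS core at 34 (14.9% of windows). The Dusp6 window held none of the 5 motifs, nor did those of Spred1, Dusp7 and Spry1, and Spred2 held 1 TGACG core at -51 (20.8% of windows). None of the 8 held the AP-1 element (7.81% of windows). A match is a description of letters, and a window without one says nothing of elements elsewhere.

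**Figure D2:**
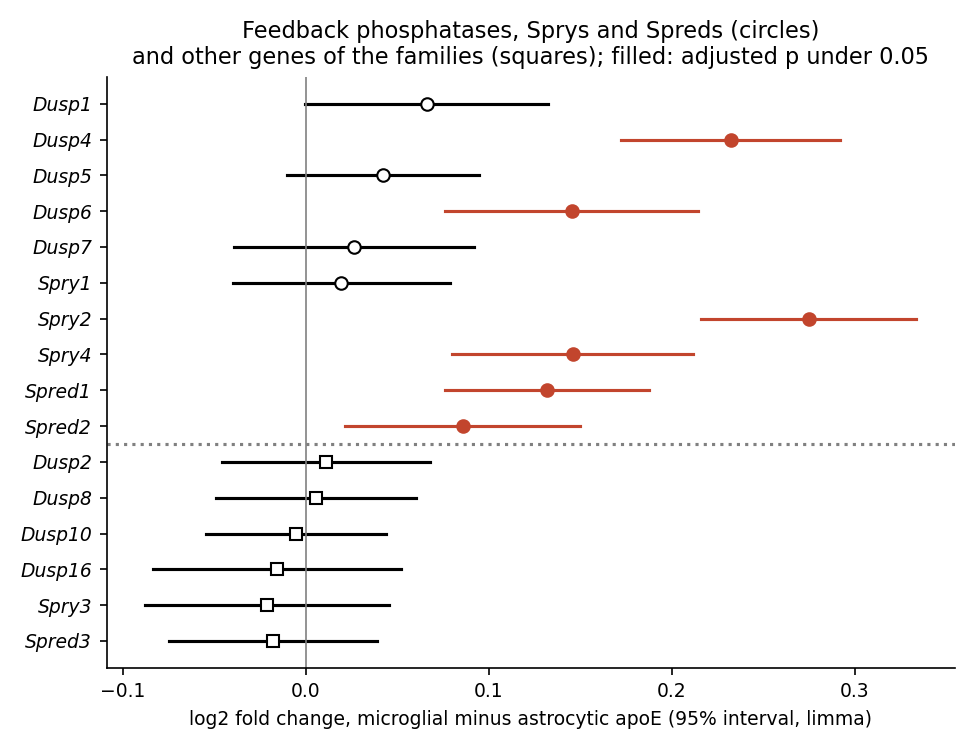
Log2 fold change, microglial minus astrocytic apoE, with its 95% interval from limma, for the 10 feedback genes (circles) and the 6 tested other genes of the same families (squares). The 6 filled circles passed, and the intervals of all 6 squares include 0.

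The same families hold 7 further genes: the phosphatases Dusp2, Dusp8, Dusp9, Dusp10 and Dusp16, and Spry3 and Spred3. Dusp8, Dusp10 and Dusp16 act mainly on the stress kinases JNK and p38. Of the 6 tested, 0 rose and 0 fell, and 0 did so under any of the 14 alternatives. At an unadjusted p under 0.05 the count was 0 as well, the smallest being 0.52. Their log2 fold changes ran from -0.02 (Spry3) to 0.01 (Dusp2), with SEs of 0.024 to 0.033. Signs of such small values turned with the scaling for Dusp2, Dusp8 and Dusp10. Dusp8 lay between 11.96 and 12.02 in all 6 libraries, and its 95% interval was -0.05 to 0.06. Spred3 stood at 10.14, 10.14 and 10.15 against 10.13, 10.13 and 10.12, a difference of -0.02 ± 0.028 SE (95% interval -0.07 to 0.04). Dusp9 was too low to be tested (0.41 to 0.42 in every library). Whether these genes differ from the 10 as a group was not tested.

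Per length of merged exons, the 10 genes kept the same order in both groups. Spry2 had the highest level, 476 ± 9.17 per kb with astrocytic and 575 ± 5.72 per kb with microglial apoE (2^value scale, SD, n = 3). Dusp4 (355 and 417) and Spred1 (350 and 383) followed, with ranges over the libraries that overlapped each other. Spred2 (252 and 268), Dusp6 (208 and 230) and Dusp7 (201 and 204) were next, the last 2 overlapping. Spry4 (135 and 149) and Dusp1 (119 and 125) were lower, and Spry1 (48.6 and 49.2) and Dusp5 (43.1 and 44.4) were lowest. The 3 genes highest in this order all rose, and the 3 lowest (Dusp1, Spry1 and Dusp5) did not pass. Between these, Dusp7 did not pass, whereas Spry4, at a lower level, rose. A link between level and call was not tested. The merged exons of Dusp1 include annotated transcripts with retained introns or a far upstream start, which lowers its level per kb.

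The pathway around these genes was read from lists written by textbook role, with earlier results of these data known. Among 22 tested ligands of receptor tyrosine kinases, 4 rose and 4 fell (median 0.0045). Hbegf, a ligand of the epidermal growth factor receptor, had values of 9.21, 9.17 and 9.22 against 9.64, 9.65 and 9.65, well apart, and rose 1.36-fold (0.45 ± 0.029 SE, adjusted p = 9.8e-12). Vegfa, the vascular endothelial growth factor, rose 1.31-fold (0.39 ± 0.028 SE), and the ErbB ligand Nrg1 rose by 0.23 ± 0.030 SE. Among 17 tested receptors, 2 rose and 4 fell, and 1 rose without astrocytic replicate 1, without microglial replicate 1 or 3, with median centring and with plain limma options. The platelet-derived growth factor receptor Pdgfra (-0.38 ± 0.030 SE), the hepatocyte growth factor receptor Met (-0.22 ± 0.029 SE) and the BDNF receptor Ntrk2 (-0.16 ± 0.027 SE) fell. Pdgfra also marks oligodendrocyte precursors.

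Inside the cell, adaptors and kinases went both ways. Among 18 adaptors and Ras genes 5 rose and 4 fell. Of these, 3 rose without astrocytic replicate 1, without microglial replicate 1 or 2 and with median centring, and 2 fell without astrocytic replicate 1 or microglial replicate 2. The adaptor Gab1 rose by 0.19 ± 0.028 SE, and the Ras-related Rras2 (-0.16 ± 0.028 SE) and Mras (-0.14 ± 0.026 SE) fell. Of 19 kinases and scaffolds of the ERK module 2 rose and 1 fell (10.5% and 5.3%, against 13.0% and 11.8% of all genes), and 4 rose without microglial replicate 2 and with equal sums. Map2k1, which encodes the ERK kinase MEK, stood at 10.50, 10.46 and 10.47 against 10.63, 10.69 and 10.63, without overlap, and rose by 0.18 ± 0.028 SE (adjusted p = 4e-05). Mapk3, which encodes an ERK, did not pass (-0.05 ± 0.027 SE, adjusted p = 0.21). The scaffold Lamtor3 rose (0.10 ± 0.030 SE) and the Ras effector Shoc2 fell (-0.12 ± 0.032 SE). Of 18 JNK and p38 module kinases 2 rose and 1 fell: Mapkapk3 (0.12 ± 0.033 SE), Mapk14 (0.09 ± 0.029 SE) and Mapk8 (-0.10 ± 0.029 SE). Each of these 5 calls was lost without some single library (largest adjusted p = 0.071 to 0.14). These were astrocytic replicate 2 and microglial replicate 3 for Lamtor3, and these 2 or astrocytic replicate 1 for Shoc2. They were astrocytic replicate 1 or 2 for Mapk8, microglial replicate 2 for Mapkapk3, and astrocytic replicate 2 or 3 or microglial replicate 1 or 2 for Mapk14, whose call was also lost without the filter on low values, with median centring and with equal sums without mitochondrially encoded genes. Under the alternatives 0 to 3 genes of this list fell, 2 of them without astrocytic replicate 3 or microglial replicate 3.

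Inhibitors of the pathway outside these families were also listed. Of 16 tested, 2 rose and 0 fell, with a median of -0.0013. Nf1, the neurofibromin gene, rose by 0.11 ± 0.030 SE (adjusted p = 0.0092), a call lost without microglial replicate 3 (adjusted p = 0.11). Dok1, an adaptor that recruits a Ras inhibitor, rose by 0.06 ± 0.020 SE, and its call was lost under 6 of 13 alternatives, among them without astrocytic replicate 1 or microglial replicate 1 or 3. Il17rd, a membrane inhibitor of fibroblast growth factor signalling that ERK induces, did not pass (-0.06 ± 0.031 SE, adjusted p = 0.13). The Ras inhibitor Rasal1 missed the threshold (-0.07 ± 0.029 SE, adjusted p = 0.097) and passed with median centring (adjusted p = 0.031) and with plain limma options (adjusted p = 0.034).

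**Figure D3:**
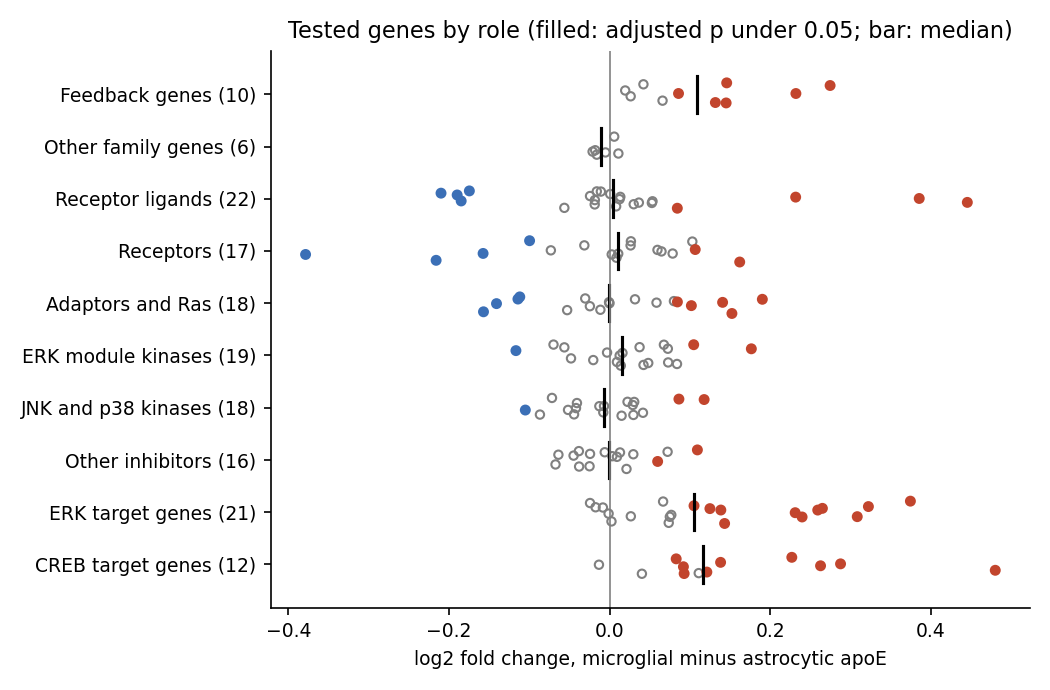
Log2 fold change (horizontal axis) of each tested gene by role in the pathway, with the number tested in parentheses; filled points passed (red higher, blue lower with microglial apoE) and bars are medians. The medians of the 10 feedback genes and of the ERK and CREB target genes lie at 0.11 to 0.12, and those of the other lists near 0.

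ERK target genes outside the feedback families were tested in the same fit. Of 21 tested, 11 rose (52.4%, against 13.0% of all genes) and 0 fell, with a median of 0.11, and 9 to 15 rose under the alternatives. Etv5 and Etv4 encode ETS factors that are induced with Dusp6 and the sproutys by fibroblast growth factors. Etv5 had values of 10.54, 10.54 and 10.55 against 10.84, 10.89 and 10.87, with no overlap, and rose 1.25-fold (0.32 ± 0.027 SE, adjusted p = 1.4e-09). Etv4 rose by 0.14 ± 0.032 SE (adjusted p = 0.0019). Ier3, an immediate early gene (7.94, 7.96 and 7.98 against 8.30, 8.38 and 8.32), rose 1.30-fold (0.37 ± 0.031 SE), and Egr1 rose by 0.31 ± 0.032 SE. Of 12 targets of the cAMP response element binding protein (CREB), 9 rose (75.0%) and 0 fell, with a median of 0.12. Nr4a1 rose by 0.48 ± 0.031 SE, the repressor gene Nfil3 by 0.29 ± 0.027 SE and the clock gene Per1 by 0.26 ± 0.030 SE. Many of these genes respond to both ERK and CREB, so the lists are not separate readouts. Both lists were written with earlier results of these data known, so their shares are descriptions and no independent test.

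Over the 6 libraries, the genes whose centred profile lay closest to that of Spry2 were Myh9, which encodes a non-muscle myosin heavy chain (root mean square distance 0.0121 on the log2 scale), Prr5l (0.0155) and Klf4 (0.0157), a transcription factor. Myh9 stood at 10.07, 10.05 and 10.11 against 10.37, 10.36 and 10.38. Among the feedback genes Dusp4 was closest, in place 55 of all genes (0.0323), and Spry4 was in place 530 (0.0703). This measure is dominated by the difference between the groups, which all these genes share.

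Markers of other cell types moved in the same libraries. All 12 markers of each list had a value other than 0. Of 11 tested astrocyte markers 8 fell and 1 rose, and their 2^value summed to 60850 to 61536 per library with astrocytic and to 52510 to 53489 with microglial apoE. Of 12 markers of dividing cells 12 fell (sums 2739 to 2827 against 1798 to 1824). In bulk RNA, fewer cells of a type and less RNA per cell cannot be told apart. Oligodendrocyte lineage markers fell in 3 and rose in 1 of 9 tested (6512 to 6816 against 6618 to 6783). Neuron markers fell in 4 of 12 (86153 to 87790 against 83149 to 84229). Fibroblast markers rose in 3 and fell in 3 of 10 (4843 to 4873 against 4521 to 4629), and endothelial and mural markers fell in 1 of 4 (1006 to 1061 against 918 to 934). A sum weighs its highest gene most. For fibroblasts that was Thy1 (mean 11.71 with astrocytic, 11.59 with microglial apoE), which fell with Pdgfra and Postn, whereas Col1a1, Col1a2 and Lox rose. For endothelial and mural cells it was Notch3 (9.24 and 8.95), the gene that fell, and Cldn5, Cdh5 and Pecam1 were too low to be tested. Microglia markers stayed low (590 to 610 against 623 to 624), with 1 of 9 higher and with P2ry12 (2.20 in both groups), Tmem119 and Trem2 below the level for testing. The part of these shifts in the rise of the feedback genes was not tested.

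**Figure D4:**
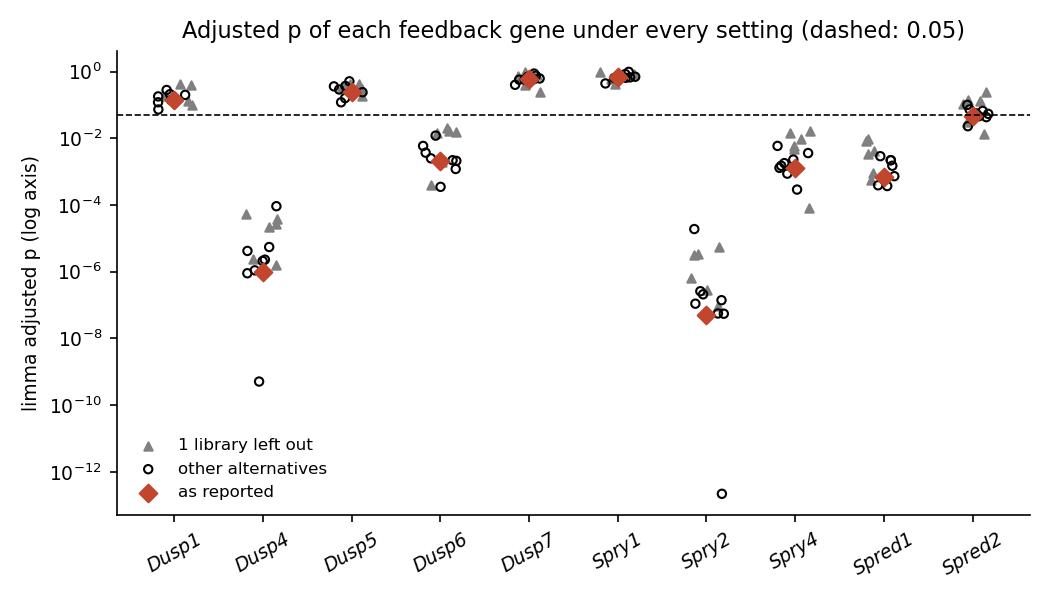
Limma adjusted p (log axis) of each feedback gene as reported (diamond), with 1 library left out (triangles) and under the other alternatives (open circles); the dashed line is 0.05. Spry2, Dusp4, Spry4, Dusp6 and Spred1 stay below the line under every alternative, and Spred2 crosses it.

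The calls of Spry2, Dusp4, Spry4, Dusp6 and Spred1 held under all 14 alternatives, which left out each library, changed the scaling, the filter, the pseudocount and the variance model, or used the replicate number as a block. Their largest adjusted p values were 1.9e-05, 9.2e-05, 0.017, 0.02 and 0.0097. Dusp1, Dusp5, Dusp7 and Spry1 passed under none of them. The split of all calls depended on the scaling, with 52.4% of calls higher as deposited, 34.8% with median centring, 65.6% with equal sums of 2^value and 41.7% with equal sums without mitochondrially encoded genes. Of the 10 feedback genes 6, 5, 6 and 5 rose under these scalings and 0 fell.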

How the data were processed

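RNA of 6 samples was sequenced on a DNBSEQ platform, per the labels' protocols. The authors deposited a log2 value per gene symbol and sample. FastQC, HISAT2, featureCounts, DESeq2 and the build GRCm38 are named in the submitters' processing notes, without roles. Versions, annotation release and strand setting were not given in the sources used here. In every library exactly 0 was the value of 21031 symbols, the same ones each time, and the lowest value was -1.966. These are properties of a regularized logarithm, which no label states.

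Deposited values were compared between the groups with limma 3.58.1 (trend and robust) in R 4.3.3, without covariates. A gene was tested at a value of at least the log2 of 10 in 3 libraries, 15055 in all, and called at an adjusted p under 0.05 (Benjamini-Hochberg, across the tested genes). Intervals (95%) and SEs are limma's moderated ones. No pseudocount was added, since the values are logarithms. The procedure was also run on simulated data in which every gene had the same SD and independent errors. Such data cannot show whether the limma SEs are right for the deposited values. The 10 genes, the lists and the alternatives were chosen with earlier results of these data known. Named were the 10, the 7 other family genes and the 3 genes of smallest p per pathway list. Mapk3, Etv4, Etv5, Il17rd and the 3 profiles closest to that of Spry2 were also named. Cell type markers were named after their values were seen. Coordinates and merged exon lengths are from GENCODE M21 (GRCm38, 1-based), where 45151 symbols (94.9%) had a single position. A further gene fixed by name is not reported here.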

Additional observations from a re-analysis of the deposited data

How the results depend on the processing

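Values are log2 fold changes unless named otherwise. Spred2 lost its call without a filter on low values (0.09, adjusted p = 0.056), with median centring (0.07, adjusted p = 0.10), equal sums without mitochondrially encoded genes (0.08, adjusted p = 0.073), limma without the trend and robust options (0.09, adjusted p = 0.066) and the replicate block (0.09, adjusted p = 0.054), and ranged from 0.06 to 0.12 with 1 library left out. The number of all genes called lower went from 1780 to 2765 with median centring. Values near 0 that did not pass changed sign: Dusp2 (-0.01) and Dusp8 (-0.01) with median centring, Dusp8 (-0.0044) with equal sums without mitochondrially encoded genes, and Dusp10 (0.01) with equal sums. With 1 library left out, the ranges that crossed 0 were those of Spry1 (-0.0041 to 0.04), Dusp2 (-0.01 to 0.03), Dusp8 (-0.01 to 0.02), Dusp10 (-0.02 to 0.01) and Dusp16 (-0.05 to 0.02). The cause was not tested. Same-numbered libraries did not deviate together (correlations over genes of 0.039, -0.122 and -0.186). Pairs with different numbers ranged from -0.120 to 0.176. Deviations from the mean of 3 libraries constrain each other, so these correlations cannot decide whether the numbers pair the samples. The replicate block gave 3387 called genes against 3742 and 5 feedback genes higher. Depth is unknown, so no limit of detection can be given for low genes such as Dusp5 and Spry1.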
